A study of Mus musculus with 22 samples.

Results

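The miRNAs described here are 5 that are abundant in white blood cells, mmu-miR-223, mmu-miR-150, mmu-miR-155 and both arms of miR-142, mmu-miR-142-3p and mmu-miR-142-5p (the species prefix is dropped from here on). They were chosen by name among the 566 mouse miRNA probes of the NanoString nCounter panel, an assay in which each miRNA is tagged, hybridized to a probe with a fluorescent barcode and counted without amplification. Both miR-142 arms come from the hairpin of one gene, Mir142, which is transcribed in nearly all blood cells. miR-223 is a miRNA of granulocytes, monocytes and platelets, miR-150 is most abundant in mature lymphocytes, and miR-155 is induced when lymphocytes and macrophages are activated. In a solid tissue such miRNAs are carried in mainly by resident and infiltrating white cells and by blood, and in plasma they are shed by blood cells and platelets.

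The study used mice with conditional alleles, floxed Brca1 or Brca2 among them, and an inducible Pax8-Cre system, in which doxycycline switches on recombination in cells that express Pax8, among them the secretory epithelium of the fallopian tube. The comparison covers 5 uninduced control fallopian tubes (CT1 to CT5), 5 doxycycline-induced tubes (FT1 to FT5) and 5 metastatic tumors. Of the tumors, M1 to M4 were peritoneal and M6 was ovarian. Plasma came from 3 control mice (CS2 to CS4) and 4 tumor mice (TS1 to TS4). GEO lists TS1 to TS4 under the tissue plasma but with serum as the source name. CS2 to CS4 shared their mice with CT2 to CT4, and TS1 to TS4 with FT2 to FT5, while M samples of mice that also gave an FT sample were not identified by name. Ages were not given in the sources used here. Among control mice Brca1 was fl/fl in CT1 and CT3 and fl/+ in CT2, and Brca2 was fl/fl in CT4 and fl/+ in CT5. After induction Brca1 was -/- in FT2 and -/+ in M2 and M6. Brca2 was -/- in FT4, M1 and M3 and -/+ in FT1, FT3, FT5 and M4.

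The mouse miRNA counts of a sample summed to between 70164 and 598321 in tissue and to between 18350 and 269005 in plasma, and CS3 was the shallowest of the 22. The divisor of each sample was the geometric mean of its own 100 (tissue) or 30 (plasma) most abundant miRNAs, and counts so scaled are called normalized counts. Fold changes of edgeR are given with their standard error (SE). Tissue and plasma were scaled apart, so their levels were not compared. A miRNA was called above background in a sample when its count exceeded the mean plus 2 SD of the 8 negative hybridization controls, which was 18.3 to 67.7 counts for tissue and 25 to 48.4 counts for plasma.

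The mature sequences below show that the 4 members printed have different seeds, the stretch from base 2 to base 8 that pairs with targets and is printed in capitals. They are from RefSeq (GRCm38.p6), in which 4 of the 5 members and their arms were matched by name. The mature arm of the fifth is named mmu-miR-150-5p. None of the 4 seeds occurred in another of the 1679 mature mouse miRNAs of that table.
mmu-miR-142-3p (RefSeq mmu-miR-142a-3p): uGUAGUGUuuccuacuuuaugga
mmu-miR-142-5p (RefSeq mmu-miR-142a-5p): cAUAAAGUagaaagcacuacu
mmu-miR-223 (RefSeq mmu-miR-223-3p): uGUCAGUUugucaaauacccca
mmu-miR-155 (RefSeq mmu-miR-155-5p): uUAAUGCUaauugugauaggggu
The miR-142 arms lie at chr11:87756903-87756925 (3p) and chr11:87756867-87756887 (5p), miR-223 at chrX:96242884-96242905 and miR-155 at chr16:84714143-84714165, all on the plus strand.

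mmu-miR-155 gave no measurement. Its count was 1, the lowest value in the table, in 21 of the 22 samples, below the mean of the negative controls in each of them. The exception was TS3, with 61 counts against a background level of 36.01. It was the one miRNA of the 566 that stood at 1 in at least 21 samples, and it is not described further.

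The miR-142-5p probe was above background in all 22 samples, but its counts followed the spiked hybridization controls. The positive controls are synthetic targets added in the same amount to every reaction. Counts of miR-142-5p ran from 81 in M2 to 259 in M1 and M4, a 3.20-fold range, while the geometric mean of the 6 positive controls had a 2.81-fold range and that of the most abundant miRNAs a 12.6-fold range. Per 100 counts of the positive controls, the probe gave between 12.1 and 18.8 counts in every sample, tissue or plasma alike.

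Across the 22 samples, log2 counts of miR-142-5p and of the positive controls had a Pearson's r of 0.94 (permutation p = 2e-05, the smallest the 100000 resamples can give, adjusted p = 8e-05 over 4 members) and a Spearman's rho of 0.96 (permutation p = 2e-05). Without the 2 samples farthest from the median of the controls r was 0.94. Within tissue r was 0.94 (n = 15, permutation p = 2e-05, rho 0.97, permutation p = 2e-05, r 0.89 without the 2 farthest samples), and within plasma it was 0.65 (n = 7, exact permutation p = 0.16, rho 0.61, exact permutation p = 0.167, r 0.87 without the 2 farthest samples). This was the highest r of all 566 miRNAs, followed by miR-568 at 0.71, and the median was -0.30. The other arm of the hairpin had an r of -0.34 (permutation p = 0.122, adjusted p = 0.163, rho -0.38, permutation p = 0.081, r -0.37 without the 2 farthest samples), miR-223 had -0.26 (permutation p = 0.237, adjusted p = 0.237, rho -0.25, permutation p = 0.252, r -0.19 without them) and miR-150 had -0.44 (permutation p = 0.0421, adjusted p = 0.0842, rho -0.43, permutation p = 0.0478, r -0.36 without them).

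**Figure D1:**
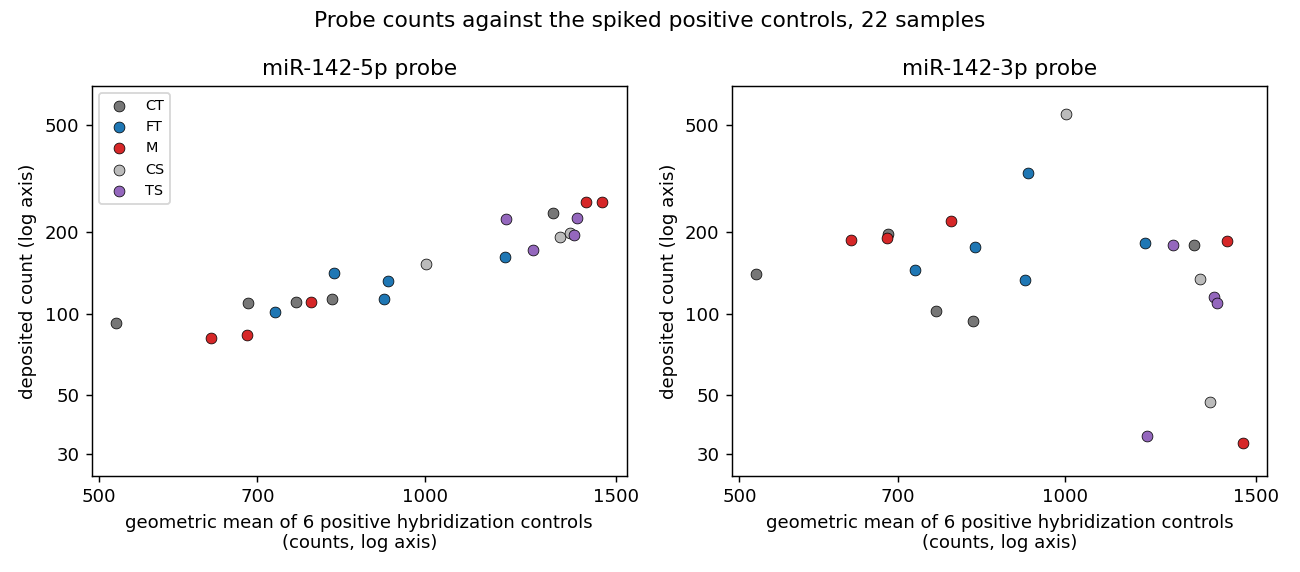
Deposited counts of the miR-142-5p probe (left) and the miR-142-3p probe (right) against the geometric mean of the 6 positive hybridization controls, both on log axes, one point per sample and one colour per group. The 22 miR-142-5p points lie along one line (r = 0.94), whereas the miR-142-3p points scatter (r = -0.34).

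Normalized counts of miR-142-5p were 128, 163, 120, 71.8 and 279 in CT1 to CT5, 37.4, 313, 272, 220 and 77.1 in FT1 to FT5, and 527, 71.3, 193, 538 and 74.0 in M1, M2, M3, M4 and M6. In plasma they were 652, 1257 and 76.9 in CS2 to CS4 and 274, 191, 284 and 91.8 in TS1 to TS4. Within CT, FT, M and CS the highest samples (CT5, FT2, FT3, FT4, M1, M4, CS2 and CS3) had a geometric mean of abundant miRNAs of at most 351 counts, as did M3. The highest TS samples, TS1 and TS3, had the lowest geometric means of that group (846 and 941). The groups overlapped in every comparison. The positive controls also served as the scale, an alternative chosen after seeing the data. The log2 fold changes of miR-142-5p by edgeR were then -0.16 in FT against CT, -0.089 in M against CT and 0.094 in TS against CS. On the scale of abundant miRNAs they were 0.27, 0.88 and -1.65. Because the probe followed these controls, small values on their scale were fixed in advance and add no information on the groups. Why the probe followed the controls was not tested.

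mmu-miR-223 was the member that rose in the tumors. Normalized counts were 162, 176, 74.6, 134 and 131 in CT1 to CT5 and 468, 1781, 3162, 110.02 and 1323 in M1, M2, M3, M4 and M6. Of the tumors 4 of 5 lay above every CT sample, and M4 lay within the CT range. Group means were 136 ± 39.1 (SD, n = 5) in CT and 1369 ± 1203 (SD, n = 5) in M, a log2 fold change of 3.33 (SE 0.709, edgeR adjusted p = 0.00417 over 566 miRNAs). The two-sided exact permutation test of the mean log2 normalized counts, which cannot go below 0.00794 with 252 splits, gave p = 0.0397.

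In M against CT, 16.8% of all 566 miRNAs passed the threshold of 0.05 (8.66% higher and 8.13% lower in M), and miR-223 was the single one of the 5 members to do so. With each sample left out in turn its log2 fold change lay between 2.76 (without M3) and 3.63 (without M4), and the adjusted p by edgeR was at most 0.0200. The spread among tumors was 28.7-fold, from M4 to M3, against 2.36-fold among CT samples. M6, the ovarian metastatic tumor, lay within the range of the peritoneal ones.

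Among the tumors, the positive control counts were highest where miR-223 was lowest, and the summed erythrocyte miRNAs rose with miR-223. The sums of the other marker lists did not keep the order of miR-223. M1 and M4, the tumors with the lowest miR-223, had positive control geometric means of 1409 and 1458 counts, and M2, M3 and M6 had 634, 684 and 784. The summed normalized counts of 4 erythrocyte miRNAs (miR-451, miR-144, miR-486 and miR-16) were 1918 in M4, 5175 in M1 and from 8908 to 12143 in the others, and 3023 to 5062 in CT. Of these, miR-486 passed the threshold in M against CT. In tissue miR-16 made up most of the sum, with group means of 3640 in CT and 6734 in M. The means in CT and M were 237 and 910 for miR-451, 31.8 and 32.0 for miR-144, and 22.6 and 173 for miR-486. The tissue sums were therefore not read as red cell content. Smooth muscle and stroma miRNAs summed to between 618 and 3282 in M and between 4963 and 13899 in CT, and 3 of the 5 were lower in M. All 4 ciliated epithelium miRNAs were also lower, with sums of at most 63.04 in M and at least 322 in CT. The 5 epithelium miRNAs summed to 36086 in M4, 8769 in M6, 2112 in M2, 415 in M1 and 205 in M3, and to between 9717 and 11624 in CT. Of these, miR-141 passed the threshold and was lower in M. Of 3 liver miRNAs miR-122 was higher in M, and the sum was 504 in M4, 48.8 to 192 in the other tumors and 69.5 to 98.7 in CT. Of 2 endothelium miRNAs miR-126-3p was higher in M, and miR-126-5p was lower without passing (log2 fold change -1.08, edgeR adjusted p = 0.144). Means in CT and M were 5403 and 13865 for miR-126-3p, and 313 and 148 for miR-126-5p. The sum, 7779 to 17091 in M and 4453 to 7043 in CT, was therefore almost all miR-126-3p. The part of the cell mixture and of the control counts in the miR-223 difference was not tested, and in bulk tissue more cells of a type cannot be told apart from more RNA per cell.

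In doxycycline-induced tubes miR-223 was not higher than in controls. FT1 to FT5 had 168, 65.7, 156, 38.9 and 194 normalized counts, and only FT5 was above the highest CT sample. The log2 fold change was -0.11 (SE 0.490, edgeR adjusted p = 0.926), and its sign turned with the scaling. The counts in FT2 (34) and FT4 (20) were not above background.

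Compared directly, miR-223 was higher in M than in FT, with a log2 fold change of 3.45 (SE 0.918, edgeR adjusted p = 0.0430, exact permutation p = 0.0317). In that comparison 1.94% of all miRNAs passed the threshold (0.883% higher and 1.06% lower in M) and 1.41% had groups that did not overlap. A pair of mice gave samples to both groups without being named, and the fit treats all samples as independent. The call was close to the threshold and was lost without FT1, FT3, FT4, FT5, M2 or M3 (adjusted p by edgeR between 0.0657 and 0.144). It was also lost with TMM (edgeR adjusted p = 0.164), median of ratios (0.128), miR-425 (0.0591) or positive ligation control scaling (0.804), with limma (0.0752) and under further settings. The call held in 9 of 25 alternatives. Among those counted as held was the methods' t-test at an unadjusted p (0.0215), which after adjustment gave 0.510. The log2 fold change stayed between 2.88 and 3.75 with any 1 sample left out.

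**Figure D2:**
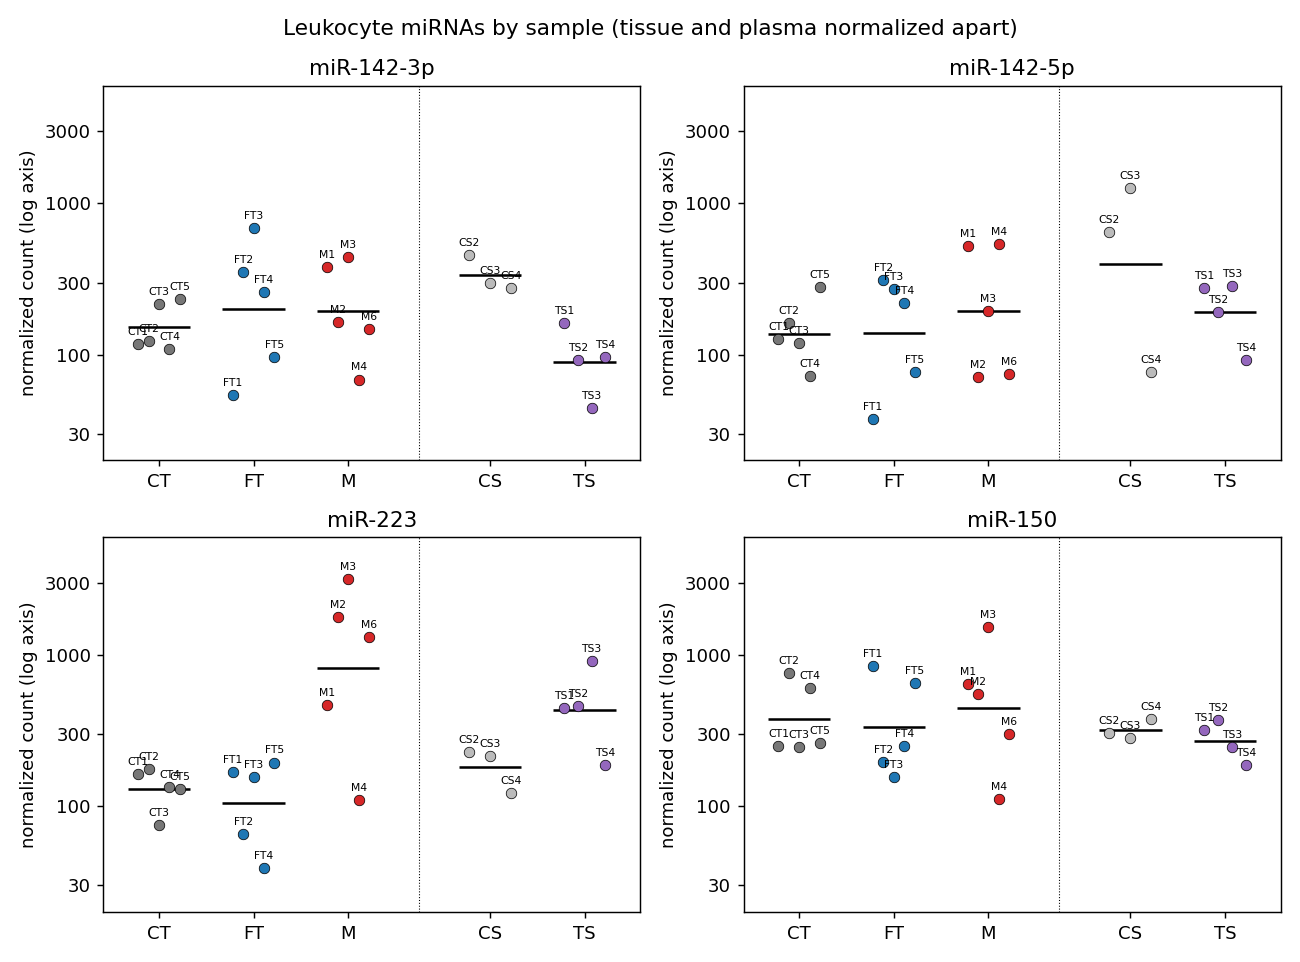
Normalized counts (log axis) of miR-223, miR-150 and both miR-142 arms in each of the 22 samples, with the geometric mean of each group as a bar and plasma to the right of the dotted line. For miR-223, M1, M2, M3 and M6 lie above all CT and FT samples and M4 lies among them, and for miR-142-3p all TS samples lie below all CS samples.

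The miRNAs most like miR-223 over the 15 tissue samples were looked up among those with a mean tissue count of at least 50. The nearest of 140 was the probe shared by miR-106a and miR-17, with a Pearson's r of 0.96 on log2 normalized counts, followed by miR-335-5p with 0.90 and miR-93 with 0.74. The first and the last of these belong to related clusters that promote proliferation. All shared the libraries and the divisor, and the values describe likeness only.

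mmu-miR-150 did not pass the threshold in any comparison. Normalized counts were 250.5, 756, 246, 609 and 261 in CT1 to CT5, 841, 195, 156, 249 and 657 in FT1 to FT5, and 643, 555, 1526, 112 and 298 in M1, M2, M3, M4 and M6. In each tissue group some samples were high and others low, and the groups overlapped. CT2, CT4, FT1 and FT5, the CT and FT samples with the most miR-150, also had the highest geometric means of abundant miRNAs in their groups. The tumors did not share this order. M3, with the most miR-150, had the lowest geometric mean of the tumors (251), and M6, with 298 normalized counts, had the highest (869). The log2 fold change was -0.015 in FT against CT (SE 0.583, edgeR adjusted p = 0.987) and 0.56 in M against CT (SE 0.611, edgeR adjusted p = 0.534). M3 set the second value, which was -0.080 without it. Among tissue samples the miRNA most like miR-150 was miR-342-3p, itself known from lymphocytes, with an r of 0.68 (n = 15). miR-350 followed with 0.61 and miR-151-5p with 0.60.

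mmu-miR-142-3p, the arm of miR-142 whose counts did not follow the positive controls, did not pass the threshold in tissue either. Normalized counts were 118, 123, 216, 109 and 232 in CT1 to CT5, 53.7, 354, 685, 259 and 96.1 in FT1 to FT5, and 378, 165, 445, 68.5 and 149 in M1, M2, M3, M4 and M6. FT3 was the highest tissue sample and FT1 the lowest, and the count of 33 in M4 was not above background. The log2 fold change was 0.86 in FT against CT (SE 0.596, edgeR adjusted p = 0.666) and 0.59 in M against CT (SE 0.510, edgeR adjusted p = 0.428). Without FT3 the first value was 0.25. Its normalized counts had an r of 0.71 with the inverse of the divisor (n = 15), against 0.88 for miR-142-5p, -0.094 for miR-223 and -0.42 for miR-150. The nearest miRNAs were miR-140, miR-365 and miR-466g, each with an r of 0.64, and miR-466g was also the nearest to miR-142-5p, with 0.84. The r of miR-142-3p with miR-223 was 0.14 and with miR-150 -0.10, while miR-223 and miR-150 had an r of 0.57.

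**Figure D3:**
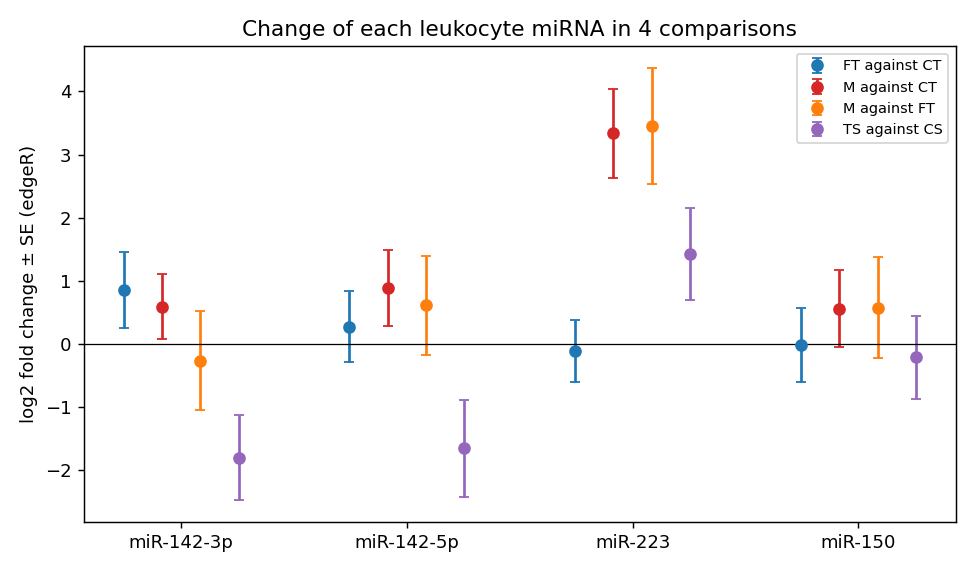
Log2 fold change by edgeR (points) with its standard error (bars) for miR-223, miR-150 and both miR-142 arms in FT against CT, M against CT, M against FT and TS against CS. The values of miR-223 against CT and FT in the tumors, 3.33 and 3.45, are the 2 that passed the threshold.

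The ratio of miR-223 to miR-150 within a sample does not depend on the divisor and sets a myeloid against a lymphocyte miRNA, though 2 probes need not count with equal efficiency, so only its change between groups was read. The ratio of counts was 0.648, 0.233, 0.304, 0.221 and 0.5 in CT1 to CT5, 0.2, 0.337, 1.0, 0.156 and 0.296 in FT1 to FT5, and 0.728, 3.21, 2.07, 0.981 and 4.44 in M1, M2, M3, M4 and M6. All 5 tumors lay above all 5 control tubes, M4 included. The mean log2 ratio was -1.53 ± 0.686 (SD, n = 5) in CT and 0.88 ± 1.11 (SD, n = 5) in M. The difference of 2.40 had an exact permutation p of 0.00794, the smallest this design allows, and an adjusted p of 0.0635 over 8 tests, so it did not pass the correction.

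Against FT the difference of the log2 ratio in M was 2.55 (exact permutation p = 0.0238, adjusted p = 0.0952), with FT3 above M1 and M4. FT and CT differed by -0.14 (exact permutation p = 0.817, adjusted p = 0.934). In plasma the ratio was 0.744, 0.756 and 0.321 in CS2 to CS4 and 1.4, 1.24, 3.74 and 1.003 in TS1 to TS4. All TS samples lay above all CS samples, by 1.5 on the log2 scale (exact permutation p = 0.0571, the smallest possible with 35 splits, adjusted p = 0.152). Groups failed to overlap in single miRNA levels in 15.2% of all miRNAs in M against CT and in 15.9% in TS against CS. The corresponding ratio of miR-142-3p to miR-142-5p differed in no comparison by more than the spread between samples (exact permutation p between 0.286 and 0.944, adjusted p between 0.571 and 0.944), and its denominator is the probe that followed the positive controls.

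**Figure D4:**
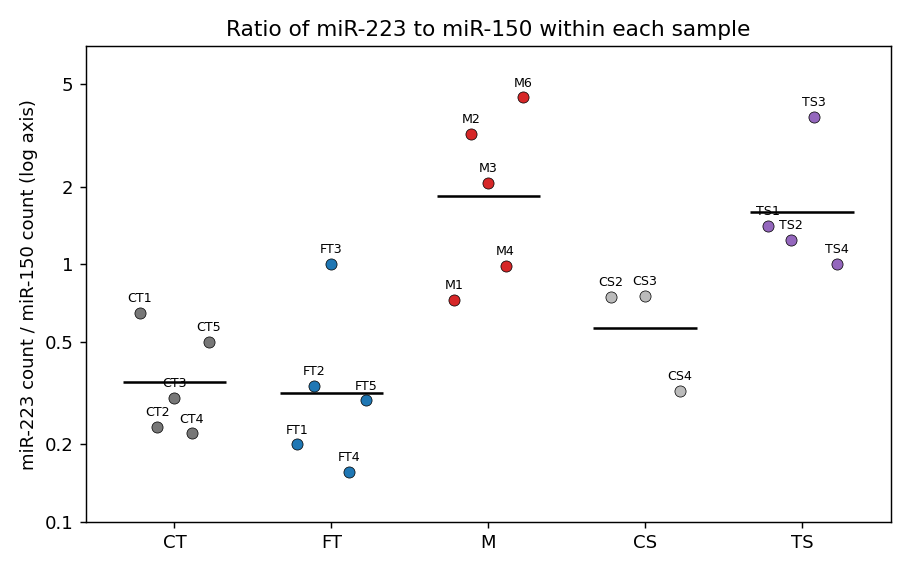
Ratio of the miR-223 count to the miR-150 count within each sample (log axis), with the geometric mean of each group as a bar. The tumors range from 0.728 to 4.44 and lie above all control tubes, which range from 0.221 to 0.648, and the TS samples lie above the CS samples.

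Plasma of tumor mice was compared with control plasma for the same members. miR-142-3p had 455, 297 and 276 normalized counts in CS2 to CS4 and 162, 92.1, 44.3 and 96.1 in TS1 to TS4. Every TS sample was below every CS sample. The log2 fold change was -1.80 (SE 0.676, edgeR adjusted p = 0.197, exact permutation p = 0.0571), which did not pass the threshold. The median over all 566 miRNAs was also below 0 in this comparison, at -1.10, and with TMM scaling, where that median was -0.05, the log2 fold change of miR-142-3p was -0.76. The count in TS3 (35) was not above background.

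miR-223 went the other way in plasma. CS2 to CS4 had 227, 215 and 122 normalized counts and TS1 to TS4 had 446, 457, 918 and 187. TS1, TS2 and TS3 were above all control samples and TS4 was between them. The log2 fold change was 1.42 (SE 0.732, edgeR adjusted p = 0.237, exact permutation p = 0.171), short of the threshold. It was 2.31 with TMM (edgeR adjusted p = 0.400) and 2.39 with median of ratios (0.417), and 0.96 without TS3, the sample that also held the lowest miR-142-3p. TS3 came from the mouse of FT4, which had the lowest miR-223 of the tubes. In CS2 and CS3 the counts were 67 and 34, against background levels of 45.5 and 25. miR-150 was close between the groups, with 306, 284 and 378 normalized counts in CS2 to CS4, 318, 369, 246 and 186 in TS1 to TS4, and a log2 fold change of -0.21 (SE 0.660, edgeR adjusted p = 0.831).

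No miRNA of the 566 (0%) passed the threshold in plasma by edgeR or by DESeq2, and 131 had an unadjusted p below 0.05 by edgeR. Leaving out CS4, the deepest control sample, changed this, with 173 miRNAs past the threshold, all of them lower in TS. They included miR-142-3p (log2 fold change -1.93, adjusted p = 0.0464 by edgeR) and the miR-142-5p probe (-2.18, adjusted p = 0.0366). The controls left, CS2 and CS3, had totals of 36639 and 18350 counts, against 94466 to 269005 in TS. Their divisors were 351 and 189, against 846 to 2231 in TS, which enlarges counts near background in CS. The part of depth in these calls was not tested. The summed erythrocyte miRNAs ranged from 20695 to 48104 normalized counts in CS and from 8081 to 66423 in TS. As for all 566 miRNAs, 0 of the 4 passed the threshold. Of these, miR-144 had means of 2456 in CS and 452 in TS. Its groups did not overlap, as in 15.9% of all miRNAs. Its log2 fold change was -2.44 (edgeR adjusted p = 0.197), against -0.28 for miR-451, 0.081 for miR-486 and 0.013 for miR-16. The part of red cell content in the plasma values was not tested.

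Beside the members, 12 further miRNAs known from white blood cells were read from the same fits. In FT against CT, where 0.177% of all miRNAs passed the threshold, 0 of the 12 and 0 of the 5 members did, 0.883% of all miRNAs had groups that did not overlap, and the median log2 fold change of the 12 was 0.11 against -0.02 over all miRNAs. Among the 12, 3 rose in M against CT and 0 fell, where 8.66% of all miRNAs were higher and 8.13% lower, and their median was 0.50 against 0.02. They were miR-132, which is induced by stimulation in several cell types, with a log2 fold change of 3.17 (adjusted p = 0.00226 by edgeR), miR-146a, which dampens NF-kB signaling, with 1.95 (adjusted p = 0.00620), and miR-21, which many tumor cells also express, with 2.08 (adjusted p = 0.0136). The lymphocyte miRNA miR-342-3p, with -0.41 (adjusted p = 0.561), did not pass. miR-146b (-0.69, adjusted p = 0.226 by edgeR) and miR-181c (-0.90, adjusted p = 0.0889) were also lower in M without passing. So was the probe shared by miR-181b and miR-181d (-0.92, adjusted p = 0.127), with at most 20 counts in M. miR-181a was higher without passing (1.20, adjusted p = 0.0835). miR-342-5p, miR-147, miR-511 and miR-212 had at most 26, 16, 21 and 11 counts in CT and at most 23, 13, 20 and 7 in M, near the negative controls. Their fold changes were not read singly, but they enter the medians of the 12. The median in M against CT lay between miR-147 (0.49) and miR-511 (0.50), so it rests on probes near background. In M against FT and in TS against CS 0 of the 12 passed, and their medians were 0.27 and -1.19 against -0.027 and -1.10 over all miRNAs. The plasma median likewise lay between low probes, miR-212 (-1.23) and miR-147 (-1.15). These miRNAs are not confined to leukocytes, and the list was read as counts only.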

How the data were processed

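Values are raw counts, deposited by the authors as whole numbers of 1 or more for the 626 probes of the nCounter mouse miRNA panel (version 1.5), of which 566 were for mouse miRNAs. RNA input per the labels was 100 ng for tissue and 10 ng for plasma. The authors normalized in nSolver 3.0 to the top 100 (tissue) or top 30 (plasma) miRNAs, which the deposited counts do not carry. Here each sample's own most abundant miRNAs were used. Whether the study took one set for all samples is not stated in the sources used here, and a fixed set was an alternative. Whether controls were corrected before deposit is not stated in the sources used here. All 22 samples were used as labelled. M5 and CS1 were not analysed here. Some alleles of the mice are not reported here. The study's list of mice has a separate entry for each tissue sample of a group, and the labels name no batch, so p-values measure the spread between these samples. Totals per sample are given in the report, and a background level was set from the negative controls.

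Each comparison was fitted to all 566 miRNAs with edgeR 4.0.16 (quasi-likelihood test, geometric means as library sizes, no filter, Benjamini-Hochberg adjustment, threshold 0.05) in R 4.3.3, with limma 3.58.1 and DESeq2 1.42.0 as alternatives, and was tested on simulated data. Single values were tested with two-sided exact permutation tests in Python 3.11.15 with scipy 1.17.1. Sequences were matched by name. Named are the 5 members, 12 further leukocyte miRNAs, marker lists and the 3 miRNAs nearest to each member. Members, lists and tests were chosen with earlier results of these data known.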

Additional observations from a re-analysis of the deposited data

Results flagged for a closer look

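The change of miR-223 against CT differed between tumors and induced tubes. The direct test of M against FT gave a log2 difference of 3.45 (adjusted p = 0.0430 by edgeR), with M1, M2, M3 and M6 above all FT samples and M4 within their range. Over the alternative settings the adjusted p ranged from 0.000344 to 0.804. In 20 groups of 4 or 5 samples, examined for single outlying samples on the log2 and the linear scale, miR-155 stood apart in TS3 (77.3 normalized counts, from 61 counts against 1 in TS1, TS2 and TS4) and in CT5 (2.47 normalized counts, from a count of 1 that the small divisor of CT5 raised). Chance flags about 1 in 20 such groups on 1 scale. No sample of the other members stood apart.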

How the results depend on the processing

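In M against CT miR-223 passed the threshold in 24 of 25 alternatives, with log2 fold changes from 2.48 to 4.15. The exception was the methods' t-test after Benjamini-Hochberg adjustment (0 members past the threshold, adjusted p = 0.152). The same t-test at an unadjusted p (0.0333) is counted as passed, and by it 155 of all 566 miRNAs passed. The replicate block is counted too. In M against FT 0 members passed with TMM, median of ratios, miR-425 or positive ligation control scaling, limma with either pseudocount setting or after subtraction of negative controls, the methods' t-test after adjustment, a minimum mean count of 20 or the replicate block, and between 0 and 1 with a sample left out. In TS against CS 1 member passed with the methods' t-test at an unadjusted p (miR-142-3p) and 1 with the replicate block (miR-142-3p, adjusted p = 0.0262 by edgeR), and between 0 and 2 with a sample left out. In FT against CT 0 members passed throughout. Sample numbers did not mark shared mice between compared groups, and the correlation of same-numbered samples ranged from -0.389 to 0.389, so the replicate block gives no paired analysis. It moved the number of miRNAs past the threshold from 95 to 64 in M against CT, from 11 to 1 in M against FT, from 1 to 0 in FT against CT and from 0 to 226 in TS against CS.

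Some log2 fold changes turned sign with the scaling. In FT against CT miR-223 was 0.19 with TMM, 0.29 with median of ratios, 0.23 with miR-425 and 0.96 with positive ligation controls, and miR-150 was 0.37, 0.50, 0.28 and 1.29 with these and 0.072 with a fixed set of abundant miRNAs. In TS against CS miR-150 was 0.57, 0.68, 0.51, 0.44 and 0.10 in the same order, and miR-142-5p went from -1.65 to 0.76 with positive ligation controls. In M against FT positive ligation controls gave 0.37 for miR-142-3p and -0.41 for miR-150. Scaling to positive hybridization controls gave -0.16, -0.089 and 0.094 for miR-142-5p in FT, M and plasma, small values fixed in advance because the probe followed these controls. With a sample left out, FT against CT gave -0.43 to 0.30 for miR-150, -0.33 to 0.11 for miR-223 and -0.014 to 0.60 for miR-142-5p. M against CT gave -0.080 to 0.87 for miR-150, and M against FT gave -0.064 to 0.99 for miR-150 and -0.61 to 0.34 for miR-142-3p. The log2 ratio of miR-142-3p to miR-142-5p then differed by -0.45 to 0.60 in M against CT, -0.83 to 0.22 in M against FT and -1.77 to 0.19 in plasma, and that of miR-223 to miR-150 by -0.56 to 0.11 in FT against CT. In M against CT the ratio of miR-223 to miR-150 stayed between 2.09 and 2.74. The cause of these changes was not tested.

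Over all miRNAs in M against CT, 49 were higher and 46 lower, against 70 and 10 with miR-425, 58 and 24 with a fixed set, 39 and 9 with positive ligation controls, 44 and 94 after subtraction and 37 and 53 with a pseudocount of 10. The median log2 fold change of all miRNAs in that comparison was 0.02, and 0.66 with miR-425, 0.45 with positive ligation controls, 0.29 with a fixed set, 0.21 with median of ratios and 0.18 with TMM, so changes are relative to the scale chosen. The total of 95 was 151 with TMM or DESeq2, 163 with median of ratios, 45 with the adjusted t-test of the methods and 60 to 101 with a sample left out. In M against FT the total of 11 was 35 with DESeq2, 23 with CT, FT and M together, 2 with miR-425 and 4 to 25 with a sample left out.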
